A study of Homo sapiens with 16 samples.

Results

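The genes described here are 44 genes of the interferon response, on a list chosen with earlier results of these data known. They were read in the RNA-seq counts of HCT116, an established cell line from a human colorectal carcinoma. They fall into 5 sensors of nucleic acids, 12 signalling factors and 27 effectors, which are genes that interferon switches on. A row in the count table was found for 43 of the 44, out of 33937 genes in the table, and IFI44L was not analysed here. The study knocked down NAA40, the enzyme that acetylates the N-terminus of histones H4 and H2A, with an shRNA that doxycycline induces, and asked how its loss changes transcripts. The 16 libraries form 4 groups of 4. Cells carrying a scrambled shRNA are labelled SCR, and cells carrying the NAA40 shRNA are labelled NAA40-KD. By the methods and the sample titles, both were grown for 96 h either with doxycycline at 1 μg/ml, written (+dox), or in its absence, written (-dox). The titles of the (-dox) samples name no doxycycline. Their columns of counts are headed wDox, against Dox for (+dox), and the sources used here do not explain the w. All cells carried an inducible construct, the knockdown libraries come from a single stably transfected line, and no line was given interferon. Total counts ran from 11065606 to 13855486 per library.

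Cells detect foreign or misplaced nucleic acid with sensors such as RIG-I, encoded by RIGI, and MDA5, encoded by IFIH1, which bind double-stranded RNA in the cytoplasm. TLR3 does this inside endosomes, and CGAS binds DNA. Sensors signal through the adaptors MAVS and STING1 and the kinase TBK1 to the factors IRF3 and IRF7, which switch on interferon genes. Secreted interferon binds the receptor chains IFNAR1 and IFNAR2, the kinases JAK1 and TYK2 then phosphorylate STAT proteins, and a complex that holds STAT2 and IRF9 binds a promoter element with repeated GAAA and drives the effectors. RIGI, IFIH1, STAT2 and IRF7 are themselves interferon targets, so the classes overlap in how they are controlled.

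NAA40 itself was measured at 34.49, 25.92, 29.07 and 28.24 CPM (counts relative to the library total, scaled between libraries by TMM) in the libraries labelled SCR (-dox), and at 26.05, 28.39, 26.20 and 28.83 in those labelled SCR (+dox). The libraries labelled NAA40-KD (-dox) held 12.62, 11.56, 9.265 and 13.83 CPM, and those labelled NAA40-KD (+dox) held 31.45, 29.30, 28.65 and 31.88. The level was thus low under the label without doxycycline, at 40.2% of the SCR (-dox) mean (exact two-sided permutation test over 70 arrangements, p = 0.02857, the smallest that 4 against 4 libraries can give). Under the label with doxycycline the mean was 110.8% of SCR (exact permutation test, p = 0.05714). This goes against what an induced shRNA would give, so every group below is the group so labelled, and each direction is tied to the label and not to a known state of induction.

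A single library stood apart. On the first principal component of 14392 genes, which held 39.2% of the variance, NAA40-KD (-dox) replicate 4 lay at 103.52 and the other 15 libraries between -21.77 and 8.48. Against the mean of the other 3 libraries of its group, its genes in the lowest quintile by exon GC content had a median log2 difference of -1.20, and those in the highest quintile one of 1.13. Among the members the pattern was the same in kind: replicate 4 was below all 3 other libraries of its group for 8 of the 8 members in the lowest GC quintile, and above all 3 for 10 of 10 in the second highest quintile and 5 of 5 in the highest. Between these, it was below all 3 for 6 and above for 1 of 7 members in the second lowest quintile. In the middle quintile it was below for 3 and above for 3 of 8. The share of all genes in each quintile for which this holds is not given here, so these counts show nothing particular to the members. Its mitochondrial share of counts was 5.03%, the lowest of the 16. For every comparison that uses this library, the counts of members called are therefore given with and without it. The NAA40 test at (-dox) and the named genes of the wider pathway list are given only with it. Epithelial markers such as EPCAM (257.2 to 397 CPM) were high in all libraries, and the summed level of 7 leukocyte markers, among them PTPRC at no more than 0.256 CPM, ran from 1.07 to 3.54 CPM. Of 6 fibroblast markers COL1A1 alone was high, at 56.7 to 195.3 CPM, with its highest value in replicate 4; the summed epithelial level of NAA40-KD (-dox) ran from 5637 to 12250 CPM against 4041 to 5188 in SCR (-dox). The part of these differences in the results below was not tested.

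**Figure D1:**
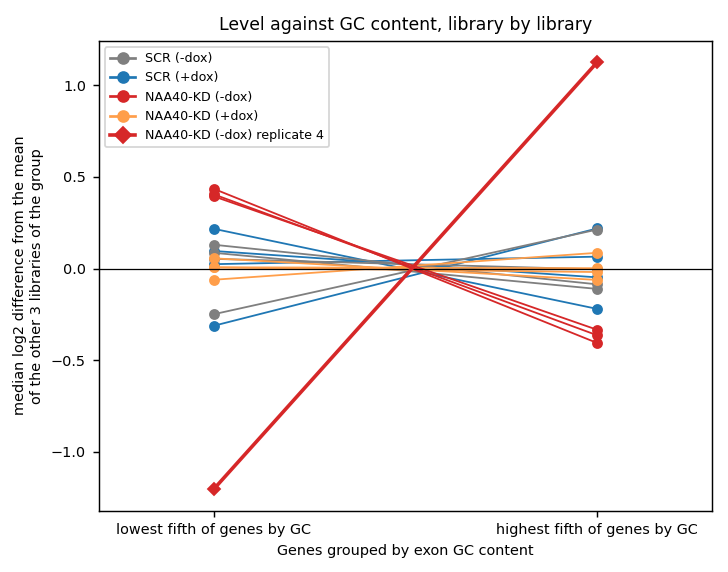
Each line is 1 library: the y axis gives the median log2 difference from the mean of the other 3 libraries of the same group, for genes in the lowest and the highest quintile of exon GC content (x axis). NAA40-KD (-dox) replicate 4 (thick red line, diamonds) runs from -1.20 to 1.13, while the other 15 libraries stay between -0.406 and 0.435.

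Levels between genes can be compared roughly per length of exon. The length used joins all annotated exons of a gene, so it can exceed that of the transcript expressed. The SDs below are between libraries and do not measure this error. In SCR (-dox) the effector IFITM3, which blocks the entry of enveloped viruses, had the highest level at 134.9 ± 14.6 CPM per kilobase (SD, n = 4). ISG15, a ubiquitin-like modifier, followed at 62.2 ± 10.1 and the RNA-editing enzyme ADAR at 46.6 ± 1.45. The highest signalling factor was MAVS at 24.05 ± 0.338, above IRF3 at 14.06 ± 0.790, JAK1 at 13.49 ± 0.961, STAT2 at 12.07 ± 2.06 and TYK2 at 11.64 ± 1.71. Neighbours in this order from IRF3 to TYK2 differed by less than the larger of their SDs, while MAVS stood above IRF3 by more than that. Sensors were low, with RIGI at 3.53, IFIH1 at 2.77, DHX58 at 0.441 and TLR3 at 0.209 CPM per kilobase. CGAS was at or near 0, with at most 0.153 CPM in any library. XAF1 (at most 0.222 CPM) and SAMD9L (at most 0.312 CPM) were as low, and with CGAS, IFI44 and IFITM1 they were under the limit for testing, so 38 members were tested in most comparisons and 37 in the comparison of the SCR groups, where MX1 dropped out as well. The interferon genes listed (6 of 9 with a row) had group means between 0 and 0.610 CPM, so interferon transcripts themselves were at or near 0 in all groups. In these cultures a change in the share of cells and a change in RNA per cell cannot be told apart.

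Promoters are shown for the 5 effectors with a match that passed the test of the interaction given further on. Those of DDX60 and the pair PARP9 and DTX3L are shown too. All hold letters like the repeated GAAA of the element bound by the complex with STAT2 and IRF9. Whether that complex or any other factor binds there was not measured. The letters searched were GAAANNGAAA, on both strands, in RefSeq windows from 250 bases before to 50 bases after the gene start (GRCh38.p14). This string was found in 3.57% of 35116 windows and in 4.38% of 27305 genes. Of the members, 35 of 44 had a window, and 20 of the 35 held the string: 18 of 24 effectors, 2 of 3 sensors (IFIH1 and TLR3) and 0 of 8 signalling factors. The matched letters are in capitals below, and each sequence is on the strand of its gene, 5′ to 3′. Only the part of each window around its matches is shown. The part for ISG15 lies at chr1:1013369-1013414, and that for ISG20, an exonuclease, at chr15:88638932-88638971. IFI6, a small mitochondrial protein that limits apoptosis, is shown at chr1:27672261-27672363. The part for IFITM3 lies at chr11:320871-320927, and that for BST2, which tethers budding virus to the cell surface, at chr19:17405730-17405775. DDX60, a helicase that aids RIG-I, is shown at chr4:168318781-168318855. PARP9 and DTX3L, whose proteins form a complex, start close to each other on opposite strands. The part shown for PARP9 lies at chr3:122564317-122564356. Its string is the same stretch of DNA as that found 6 bases before the start of DTX3L.
ISG15: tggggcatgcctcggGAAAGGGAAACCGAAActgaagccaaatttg
ISG20: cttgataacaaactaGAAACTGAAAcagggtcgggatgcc
IFI6: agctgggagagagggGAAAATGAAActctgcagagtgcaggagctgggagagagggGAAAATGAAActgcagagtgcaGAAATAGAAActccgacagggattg
IFITM3: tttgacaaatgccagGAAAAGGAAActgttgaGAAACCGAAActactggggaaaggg
BST2: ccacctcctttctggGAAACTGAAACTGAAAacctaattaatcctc
DDX60: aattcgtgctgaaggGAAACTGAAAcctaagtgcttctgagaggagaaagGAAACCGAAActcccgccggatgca
PARP9: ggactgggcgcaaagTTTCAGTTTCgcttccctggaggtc
ISG15 and BST2 each held 2 overlapping copies, at 113 and 107 and at 130 and 124 bases before the start. IFITM3 held 2 separate copies and IFI6 held 3, of which 2 sit in a repeated stretch. The string was not in the windows of STAT2, RIGI, IRF1 or MAVS, which says only that these letters are not within those windows.

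The first comparison asks how the NAA40-KD line differed from SCR under the label (-dox), the condition in which NAA40 was low. Of 38 members tested, 4 rose and 0 fell, against a background over 13903 genes of 2.88% that rose and 3.54% that fell. STAT2, ISG15, IFITM3 and the deconjugase USP18, which removes ISG15 from proteins, were the 4. By class, 0 of 4 sensors, 1 of 12 signalling factors and 3 of 22 effectors rose. At an absolute log2 fold change above 1 as well, 2 members remained (ISG15 and IFITM3), against 3.47% of all genes. The median log2 fold change of the members was 0.44, with 0.84 for sensors, 0.21 for signalling factors and 0.46 for effectors, and that of all genes was 0.04. Since the list was chosen with earlier results of these data known, this difference in medians is a description and not independent evidence. At an unadjusted p under 0.05 there were 16 members, all 4 sensors among them, and 3278 of the 13903 genes. The 4 calls were not firm against the loss of a library: 0 were left without SCR (-dox) replicate 1, 1 without SCR (-dox) replicate 2, 3 or 4, and 2 without NAA40-KD (-dox) replicate 2. DESeq2 called 11 members, of which 10 rose, and it also called more of all genes, with 6.73% that rose and 7.03% that fell. Over 16 alternatives, STAT2 passed in 14 (adjusted p from 5.21e-07 to 0.0764), ISG15 in 11 (4.07e-07 to 0.11), IFITM3 in 10 (8.53e-07 to 0.101) and USP18 in 7 (0.00131 to 0.142), with a log2 fold change above 0 in each. RIGI (adjusted p from 4.88e-06 to 0.213) and IFIH1 (8.13e-05 to 0.211) passed in 5 of 16, and TLR3 (0.000162 to 0.337) in 4.

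Without replicate 4 the count was 18 that rose and 4 that fell of 38, and the background rose too, to 17.1% and 19.4% of 13751 genes. By class, 3 of 4 sensors rose, 2 signalling factors rose and 2 fell, and 13 effectors rose and 2 fell. The 13 include MX1, which reached the limit for testing mainly through NAA40-KD (-dox), the group where it was high. With the fold limit 4 members remained, against 4.27% of all genes. The median was 0.42 for the members and -0.01 for all genes, and the sensors' median was 0.92, the signalling factors' 0.05 and the effectors' 0.56. When the 8 libraries were kept and a smooth offset for GC content was fitted in each, an alternative chosen after seeing the data, 17 members rose and 4 fell, against 18.8% and 19.2% of all genes. The count of rising members thus depended on how 1 library was treated, while the medians of sensors and effectors stayed above that of all genes in all 3 fits.

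**Figure D2:**
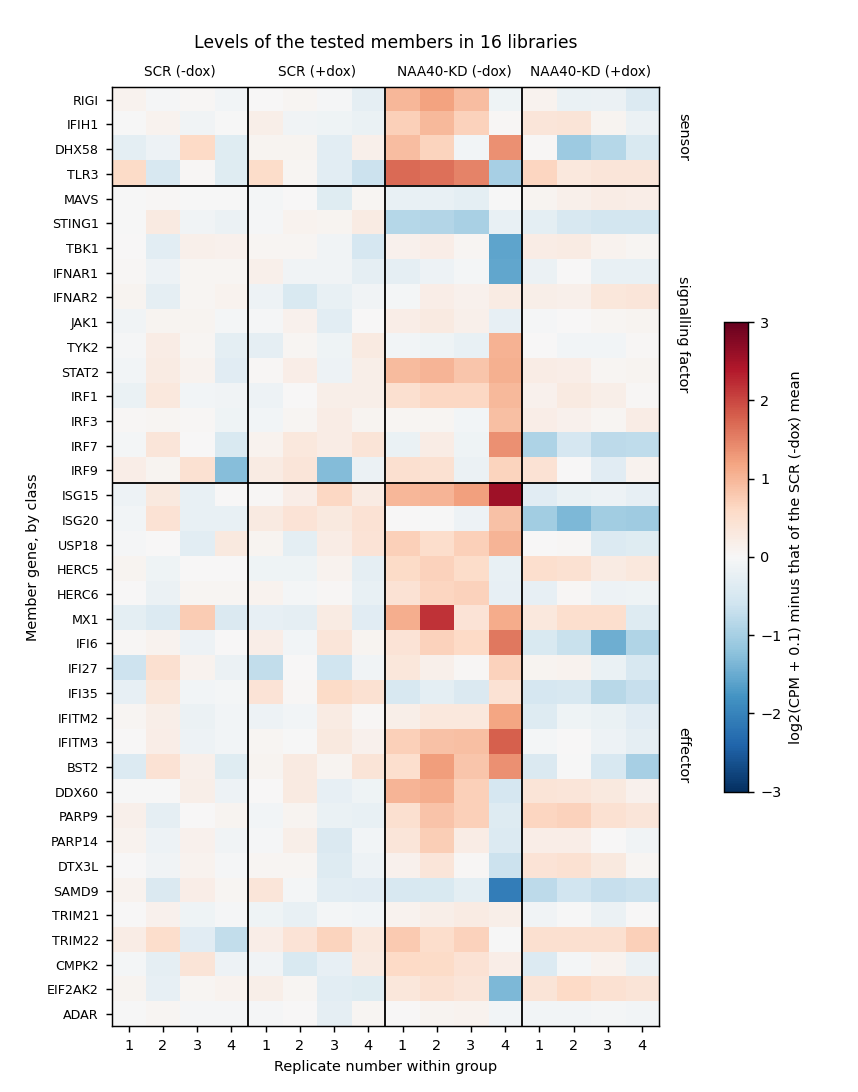
Colours give log2(CPM + 0.1) of each tested member minus that of the SCR (-dox) mean, in 16 libraries (columns, by group and replicate) with members ordered by class (y axis). Most sensors and effectors are red in NAA40-KD (-dox) replicates 1 to 3, while replicate 4 is redder for members such as ISG15 (343 CPM) and blue for members such as TBK1 (15.73 CPM) and SAMD9 (5.928 CPM).

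Among the sensors, RIGI was at 16.44, 14.88, 15.68 and 14.39 CPM in SCR (-dox), at 15.34, 15.91, 15.07 and 12.78 in SCR (+dox), at 30.6, 35.3, 29.26 and 13.92 in NAA40-KD (-dox) and at 16.45, 13.39, 13.59 and 11.60 in NAA40-KD (+dox). The first 3 libraries of NAA40-KD (-dox) were above every other library, and the fourth was below all 4 of SCR (-dox). The log2 fold change against SCR (-dox) was 0.83 ± 0.25 (SE, adjusted p = 0.0818) in 8 libraries and 1.04 ± 0.11 (adjusted p = 4.88e-06) without replicate 4. IFIH1 was at 14.14, 15.23, 13.16 and 14.08 CPM in SCR (-dox), 16.05, 13.10, 12.91 and 12.27 in SCR (+dox), 23.29, 27.77, 22.98 and 14.49 in NAA40-KD (-dox), and 18.18, 18.42, 15.06 and 12.59 in NAA40-KD (+dox). Again replicate 4 alone of its group lay within the SCR (-dox) range. Its log2 fold change was 0.65 ± 0.20 (adjusted p = 0.0815) with that library and 0.80 ± 0.12 (adjusted p = 8.13e-05) without it. TLR3 was weakly expressed, at 2.129, 0.980, 1.453 and 1.066 CPM in SCR (-dox) and 2.125, 1.482, 1.113 and 0.872 in SCR (+dox). Its levels in NAA40-KD (-dox) were 4.777, 4.641, 4.159 and 0.659, and those in NAA40-KD (+dox) were 2.273, 1.775, 1.846 and 1.850. The 3 high libraries exceeded all others, and the log2 fold change was 1.34 ± 0.51 (adjusted p = 0.152) with replicate 4 and 1.68 ± 0.26 (adjusted p = 0.000162) without it. All 3 genes are in the lowest GC quintile, where replicate 4 was low across all genes. With the GC offset and all 8 libraries the values were 0.97 for RIGI (adjusted p = 1.03e-05), 0.79 for IFIH1 (adjusted p = 0.000167) and 1.43 for TLR3 (adjusted p = 0.0029). DHX58, which encodes LGP2, a regulator of the other RNA sensors, is in the second highest GC quintile and gave 0.84 ± 0.36 (adjusted p = 0.194) in 8 libraries. It passed neither without replicate 4 nor with the GC offset.

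Among the signalling factors, STAT2 was at 69.58, 87.74, 79.10 and 58.45 CPM in SCR (-dox), 75.38, 84.94, 66.35 and 83.96 in SCR (+dox), 141.3, 148.9, 131.2 and 154.9 in NAA40-KD (-dox), and 86.09, 84.85, 77.31 and 77.56 in NAA40-KD (+dox). All 4 libraries of NAA40-KD (-dox), replicate 4 included, lay above all 12 others. STAT2 rose by a log2 fold change of 0.98 ± 0.16 (adjusted p = 0.0103), and the value was 0.93 ± 0.11 without replicate 4 and 0.94 with the GC offset, so it was the member least moved by that library among the 4 that rose. IRF1, a transcription factor that acts on many of the same promoters, was at 14.39, 20.49, 15.45 and 15.37 CPM in SCR (-dox), 14.87, 16.54, 18.48 and 18.45 in SCR (+dox), 22.92, 25.26, 25.32 and 32.52 in NAA40-KD (-dox), and 18.00, 19.75, 18.53 and 16.79 in NAA40-KD (+dox). The NAA40-KD (-dox) libraries were again the highest 4, with a log2 fold change of 0.70 ± 0.18 that missed the threshold (adjusted p = 0.0503) in 8 libraries and passed it at 0.58 ± 0.13 (adjusted p = 0.00226) without replicate 4. Exons of IRF1 overlap those of C5orf56, and no source says whether the counting used strand, so its count may hold reads of that gene. The same limit holds for other members, among them ISG15 (AL645608.3), IFITM3 (AC136475.5), IRF3 (BCL2L12), MX1 (AP001610.1) and CMPK2 (RSAD2).

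STING1, the adaptor of DNA sensing, went the other way. It was at 16.35, 19.86, 15.30 and 14.77 CPM in SCR (-dox), 16.29, 17.78, 17.44 and 19.76 in SCR (+dox), 9.107, 8.977, 8.390 and 14.24 in NAA40-KD (-dox), and 13.45, 11.84, 11.30 and 11.24 in NAA40-KD (+dox). All 8 NAA40-KD libraries were below all 8 SCR libraries. The log2 fold change at (-dox) was -0.69 ± 0.21 (adjusted p = 0.0841) in 8 libraries and -0.91 ± 0.14 (adjusted p = 0.000118) without replicate 4, whose level was the highest of its group. MAVS, the adaptor of RNA sensing, had log2 fold changes of -0.18 ± 0.13 (adjusted p = 0.436) with that library and -0.25 ± 0.08 (adjusted p = 0.0183) without it. For the other 8 factors the test was not passed either way. In 8 libraries the log2 fold changes were 0.49 for IRF7, 0.43 for IRF9, 0.14 for IFNAR2, 0.11 for JAK1, -0.14 for TBK1 and -0.40 for IFNAR1, the other receptor chain (adjusted p from 0.42 for IFNAR1 to 0.834 for TBK1). TYK2 moved from 0.27 to -0.15 and IRF3 from 0.30 to 0.01 when replicate 4 was left out. TYK2 was at 67.48 to 73.97 CPM in the first 3 libraries and at 163.7 in the fourth, and IRF3 was at 50.41 to 55.84 and at 99.3.

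Among the effectors, ISG15 was at 52.80, 71.53, 50.41 and 59.44 CPM in SCR (-dox), 59.96, 67.16, 90.10 and 69.94 in SCR (+dox), 116.5, 119.4, 137.2 and 343 in NAA40-KD (-dox), and 46.27, 50.67, 52.35 and 48.96 in NAA40-KD (+dox). The NAA40-KD (-dox) libraries were the highest 4 of the 16, and replicate 4 was far above the other 3. ISG15 rose by 1.63 ± 0.36 (adjusted p = 0.0305), or by 1.084 ± 0.11 (adjusted p = 3.72e-06) without replicate 4 and by 1.27 (adjusted p = 7.28e-07) with the GC offset, so the size and not the direction turned on that library. IFITM3 was at 183.0, 209.1, 164.2 and 171.1 CPM in SCR (-dox), 190.0, 181.7, 224.5 and 199.8 in SCR (+dox), 298.7, 334.3, 337.8 and 634.0 in NAA40-KD (-dox), and 175.3, 184.8, 164.3 and 151.9 in NAA40-KD (+dox). The order of groups was like that of ISG15. It rose by 1.16 ± 0.25 (adjusted p = 0.0271), and by 0.83 ± 0.09 (adjusted p = 9.55e-06) without replicate 4. IFITM2 and IFITM3 are near-identical copies, so the split of reads between them is uncertain. USP18 was at 6.898, 7.126, 5.661 and 8.753 CPM in SCR (-dox), 7.554, 5.772, 8.313 and 9.515 in SCR (+dox), 11.64, 10.27, 11.75 and 14.41 in NAA40-KD (-dox), and 7.181, 7.324, 5.317 and 5.479 in NAA40-KD (+dox). It rose by 0.76 ± 0.19 (adjusted p = 0.0451), and by 0.65 ± 0.15 (adjusted p = 0.00388) without replicate 4.

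ADAR and EIF2AK2, which with IFITM3 have the highest CPM of the effectors, did not follow this order. ADAR was at 450.9, 471.9, 440.9 and 443.7 CPM in SCR (-dox), 441.7, 453.8, 373.6 and 467.4 in SCR (+dox), 454.4, 477.8, 484.0 and 426.0 in NAA40-KD (-dox), and 428.7, 428.0, 436.6 and 429.6 in NAA40-KD (+dox). The groups overlapped, and the log2 fold change at (-dox) was 0.04 ± 0.12 (adjusted p = 0.891). EIF2AK2, which encodes PKR, the kinase that stops translation on double-stranded RNA, was at 112.8, 89.34, 110.4 and 114.7 CPM in SCR (-dox), 119.8, 111.9, 85.13 and 82.51 in SCR (+dox), 135.0, 147.8, 138.5 and 41.83 in NAA40-KD (-dox), and 139.9, 162.4, 146.8 and 138.9 in NAA40-KD (+dox). Apart from the low value of replicate 4, it was higher in the NAA40-KD line under both labels. At (-dox) its log2 fold change was 0.12 ± 0.33 (adjusted p = 0.868) with that library and 0.39 ± 0.10 (adjusted p = 0.00496) without it, and with the GC offset on 8 libraries the test was not passed.

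**Figure D3:**
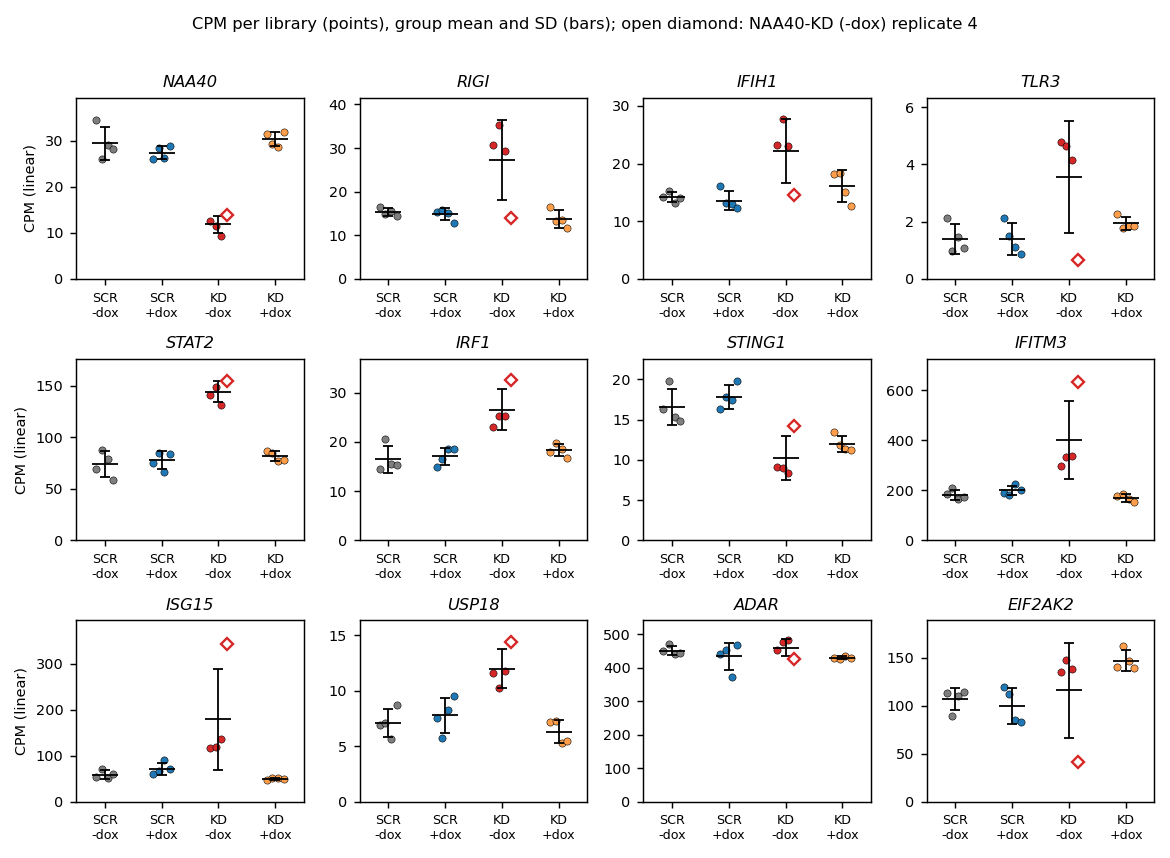
Points give CPM (linear axis from 0) in each library for NAA40 and the 11 members whose values are given library by library; bars are the group mean and SD (n = 4), and the open diamond is NAA40-KD (-dox) replicate 4. STAT2, ISG15, IFITM3 and USP18 are highest in all 4 libraries of NAA40-KD (-dox), while RIGI, IFIH1, TLR3 and EIF2AK2 are high in 3 of them and low in replicate 4.

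Without replicate 4, 9 other effectors rose. DDX60 gave 0.96 ± 0.12 (adjusted p = 2.35e-05), BST2 0.92 ± 0.24 (adjusted p = 0.00717), PARP9 0.69 ± 0.12 (adjusted p = 0.000334), and HERC5, the ligase that attaches ISG15, 0.61 ± 0.10 (adjusted p = 0.000368). Lower values were found for HERC6 at 0.58 ± 0.12 (adjusted p = 0.0012), IFI6 at 0.57 ± 0.15 (adjusted p = 0.00684), PARP14 at 0.46 ± 0.12 (adjusted p = 0.00714) and IFITM2 at 0.27 ± 0.10 (adjusted p = 0.0415). MX1, a GTPase that blocks viral replication, gave 1.46 ± 0.45 (adjusted p = 0.0195). It was at 1.167 to 4.184 CPM in NAA40-KD (-dox) and 0.609 to 1.53 in SCR (-dox), so the groups overlapped. In SCR (-dox) replicate 3 alone was above 1 CPM, so MX1 reached the limit for testing mainly through the group where it was high. IFI35 at -0.40 ± 0.15 (adjusted p = 0.039) and SAMD9 at -0.42 ± 0.14 (adjusted p = 0.0277) were the effectors that fell. In 8 libraries none of these passed the test, with adjusted p from 0.0518 for BST2 to 0.78 for IFI35. Another 6 effectors passed in neither fit, with log2 fold changes in 8 libraries of 0.59 for TRIM22, 0.48 for CMPK2, 0.35 for IFI27, 0.26 for ISG20, 0.185 for TRIM21 and 0.02 for DTX3L (adjusted p from 0.237 for CMPK2 to 0.966 for DTX3L). IFI44, too low to be tested, was at 0 to 0.766 CPM in SCR (-dox) and at 0.329 to 1.826 in NAA40-KD (-dox). IFITM1, also too low, was at 0.170 to 0.609 CPM in SCR (-dox) and at 0.803 to 1.564 in NAA40-KD (-dox), and its exons overlap those of IFITM2.

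**Figure D4:**
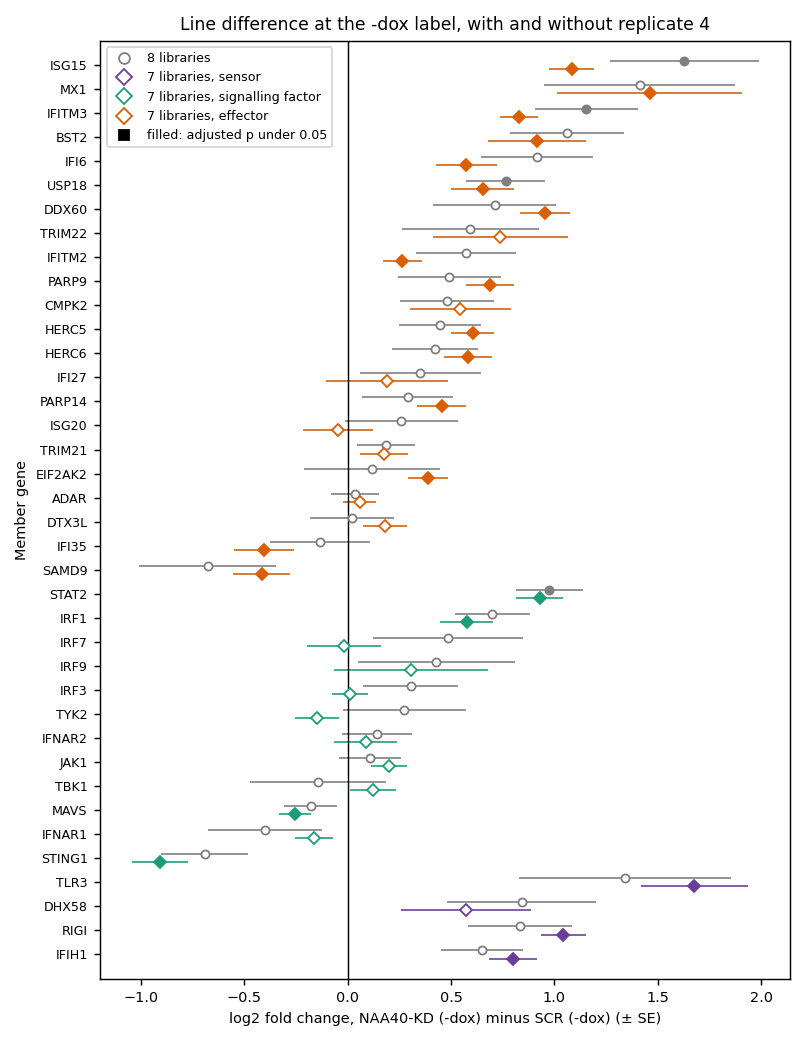
The x axis gives the log2 fold change of NAA40-KD (-dox) against SCR (-dox) with its SE for each tested member (y axis), in 8 libraries (grey circles) and without replicate 4 (coloured diamonds, by class); filled symbols have an adjusted p under 0.05. STAT2, ISG15, IFITM3 and USP18 are filled in both, and 22 members are filled without replicate 4.

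The wider pathway was read from a list of 102 other genes, of which 94 had a row and 70 were tested at (-dox). Of these 5 rose and 0 fell, against the background of 2.88% and 3.54% of all genes, all 5 among the other stimulated genes, and 0 of 27 other sensing and signalling genes passed. IFIT1, which binds RNA with an unmodified 5′ end, rose by 2.06 ± 0.22 (adjusted p = 0.00268), from 5.879 to 6.898 CPM in SCR (-dox) to 16.39 to 31.15 in NAA40-KD (-dox). OASL, which enhances RIG-I signalling, rose by 1.88 ± 0.21 (adjusted p = 0.00296). PSMB9, a subunit of the immunoproteasome, rose by 1.24 ± 0.24 (adjusted p = 0.0194), APOL2 by 0.85 ± 0.18 (adjusted p = 0.0239), and UBA7, the enzyme that activates ISG15 for conjugation, by 1.698 ± 0.40 (adjusted p = 0.0362). IFIT3 (1.16, adjusted p = 0.0548), GBP3 (1.11, adjusted p = 0.0586) and PLSCR1 (-0.73, adjusted p = 0.0541) missed the threshold. The values of these named genes all include replicate 4, and how far each turned on that library is not given here. The median over the 70 was 0.14, below the 0.44 of the members. Both lists were chosen with earlier results of these data known, so this too is a description only. Without replicate 4, 27 of the 70 rose and 11 fell, against 17.1% and 19.4% of all genes.

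The second comparison asks how the lines differed under the label (+dox), with no library in common with the first. NAA40 was not low there. Of 38 members, 5 rose and 8 fell, against 10.9% and 13.7% of 13869 genes, and with the fold limit 4 remained, against 2.15%. The median of the members was 0.06 and that of all genes was 0.00. Of the sensors 0 of 4 passed. Of the signalling factors IFNAR2, a receptor chain, rose by 0.50 ± 0.14 (adjusted p = 0.0132), STING1 fell by 0.58 on the log2 scale (SE 0.114, adjusted p = 0.00133), and IRF7 fell by 1.01 (SE 0.136, adjusted p = 3.82e-05), from 10.78 to 13 CPM in SCR (+dox) to 5.182 to 7.028 in NAA40-KD (+dox). Exons of IFNAR2 overlap those of IL10RB-DT.

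The effectors that fell were ISG20, IFI6, IFI35, BST2, SAMD9 and ISG15. ISG20 fell by 1.499 (SE 0.137, adjusted p = 5.04e-07), from 10.86 to 12.06 CPM in SCR (+dox) to 3.477 to 4.283 in NAA40-KD (+dox). IFI6 fell by 1.01 (SE 0.196, adjusted p = 0.00117) and IFI35 by 1.01 (SE 0.134, adjusted p = 3.21e-05). Smaller decreases were found for BST2 (-0.67 ± 0.21, adjusted p = 0.028), SAMD9 (-0.62 ± 0.14, adjusted p = 0.00389) and ISG15 (-0.54 ± 0.11, adjusted p = 0.00208). The effectors that rose were PARP9 at 0.65 ± 0.11 (adjusted p = 0.000287), EIF2AK2 at 0.56 ± 0.11 (adjusted p = 0.00171), HERC5 at 0.48 ± 0.11 (adjusted p = 0.00396) and DTX3L at 0.41 ± 0.12 (adjusted p = 0.018). PARP9 and DTX3L have overlapping exons, so their counts are not independent, and EIF2AK2 overlaps GPATCH11. The groups of each called member but DTX3L did not overlap. The share of all called genes for which this holds is not given here, so it adds nothing to the calls. None of these 13 calls uses replicate 4 of NAA40-KD (-dox). With each library left out, 11 of the 13 passed in 8 of 8 fits, DTX3L in 6 and BST2 in 4. Over 15 alternatives BST2 passed in 10 (adjusted p up to 0.143) and DTX3L in 12 (up to 0.187), and ISG15, HERC5, PARP9, SAMD9 and EIF2AK2 each missed the threshold in 1, the fit over 16 libraries (adjusted p up to 0.294).

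The third comparison set NAA40-KD (+dox) against NAA40-KD (-dox), the same line under both labels, and shares its libraries with the first 2. Of 38 members, 0 rose and 10 fell, against 4.71% and 5.5% of 13844 genes, and 6 passed the fold limit as well, against 3.99%. RIGI (-0.99 ± 0.27, adjusted p = 0.0476) and DHX58 (-1.42 ± 0.37, adjusted p = 0.0432) fell among the sensors, and STAT2 (-0.83 ± 0.12, adjusted p = 0.00521) and IRF1 (-0.54 ± 0.15, adjusted p = 0.0496) among the signalling factors. Of the effectors, ISG15 fell by 1.86 (SE 0.353, adjusted p = 0.0141) and IFI6 by 1.76 (SE 0.321, adjusted p = 0.0122). The decreases of BST2 (-1.498 ± 0.27, adjusted p = 0.0121), ISG20 (-1.39 ± 0.25, adjusted p = 0.0121), IFITM3 (-1.25 ± 0.24, adjusted p = 0.0147) and USP18 (-0.93 ± 0.18, adjusted p = 0.0133) also passed. Without replicate 4, 2 members rose (MAVS and STING1) and 24 fell, against 25.8% and 26.6% of 13700 genes, with 8 past the fold limit, against 3.68%. All 4 sensors were then among those that fell, by 0.63 to 1.23 on the log2 scale, and ISG15 fell by 1.33 (adjusted p = 6.7e-14). Leaving out a library of NAA40-KD (+dox) lowered the count of 10 to 5 (replicate 1), 4 (replicate 2) or 2 (replicate 3 or 4). STAT2 alone of the 10 passed in all 16 alternatives and all 8 fits with a library left out. With a library left out, IFI6 and BST2 passed in 7 of 8, USP18 in 6, ISG20 in 5, ISG15 and IFITM3 in 4, DHX58 in 2, and RIGI and IRF1 in 1 (adjusted p over the alternatives up to 0.152 for RIGI, 0.137 for DHX58 and 0.193 for IRF1). The median of the members was -0.44 in 8 libraries and -0.35 without replicate 4, against -0.04 and 0.00 for all genes.

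Whether the line difference itself depended on the label was tested as the interaction over 16 libraries, given as the difference at (-dox) minus that at (+dox). Of 38 members, 8 had a positive interaction past the threshold and 0 a negative one, against 4.91% and 4.31% of 14392 genes. ISG15 had the largest at 2.15 ± 0.39 (adjusted p = 0.00288), followed by IFI6 at 1.91 ± 0.35 (adjusted p = 0.0031), ISG20 at 1.74 ± 0.30 (adjusted p = 0.00219), BST2 at 1.72 ± 0.35 (adjusted p = 0.00636) and IRF7 at 1.48 ± 0.40 (adjusted p = 0.0276). IFITM3 gave 1.38 ± 0.27 (adjusted p = 0.00431), USP18 1.06 ± 0.26 (adjusted p = 0.0166) and STAT2 0.90 ± 0.18 (adjusted p = 0.00567). Over 23 alternatives IRF7 passed in 16, with 7 of the 16 fits that leave out a library missing the threshold (adjusted p up to 0.0615), while the other 7 members passed in all 23. IFI6 was at 5.355 to 6.324 CPM in SCR (-dox), 5.616 to 7.645 in SCR (+dox), 7.838 to 17.87 in NAA40-KD (-dox) and 2.068 to 4.272 in NAA40-KD (+dox), so the knockdown line was above SCR under one label and below it under the other. BST2 followed the same order, at 2.470 to 4.543, 3.541 to 4.358, 4.777 to 8.728 and 1.637 to 3.329 CPM. IRF7 was at 7.231 to 12.92 CPM in SCR (-dox) and at 8.659 to 25.69 in NAA40-KD (-dox), where replicate 4 held the 25.69 and the other 3 were at or under 11.64. These 8 interactions were reached in different ways. STAT2 differed between the lines at (-dox) and by 0.07 at (+dox), while ISG20 differed at (+dox) and by 0.26 at (-dox), and ISG15 passed in both with opposite signs. Without replicate 4, 17 were positive and 1, MAVS at -0.49 ± 0.12 (adjusted p = 0.00481), was negative, against 12.3% and 11.9% of 14302 genes. All 4 sensors were then positive, with RIGI at 1.16 ± 0.17 (adjusted p = 2.31e-05), TLR3 at 1.22 ± 0.38 (adjusted p = 0.0232), IFIH1 at 0.57 ± 0.18 (adjusted p = 0.025) and DHX58 at 1.18 ± 0.43, which lay at the threshold (adjusted p = 0.05 as rounded). ISG15 was then at 1.63 ± 0.17, IRF7 at 1.00 ± 0.23 and STAT2 at 0.87 ± 0.15. Of the members with a promoter window, 5 of 17 tested with the GAAANNGAAA string and 1 of 13 without it had a positive interaction in 16 libraries, and 8 of 17 and 5 of 13 when replicate 4 was left out. At (-dox), 2 of 17 and 1 of 13 rose in 8 libraries, against 2.88% of all genes. Without replicate 4, 12 of 17 and 4 of 13 rose and 1 and 2 fell, against 17.1% and 19.4% of all genes. The 12 include MX1, with the limit on its testing given above. At (+dox), 4 of 17 rose and 5 fell with the string, against 0 and 1 of 13 without it. Over all genes, 10.9% rose and 13.7% fell there. Within the knockdown line, 5 of 17 and 3 of 13 fell in 8 libraries, against 5.5% of all genes. Without replicate 4, 13 of 17 and 7 of 13 fell, against 26.6% of all genes. These splits were not tested, and the calls of all genes were not split by the string.

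**Figure D5:**
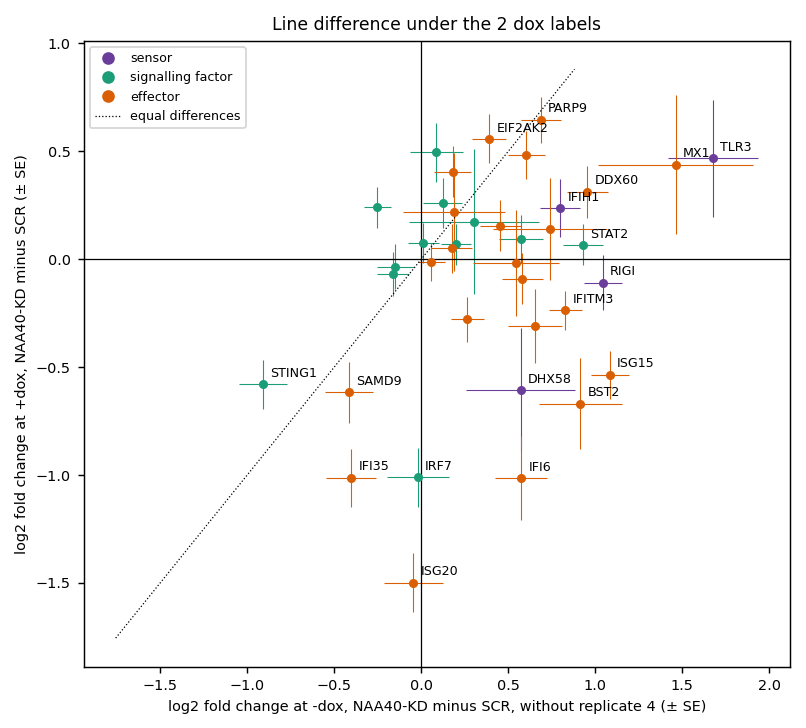
Each point is a tested member, coloured by class: the x axis gives the log2 fold change of NAA40-KD against SCR at (-dox) without replicate 4, and the y axis that at (+dox), both with SE; the dotted line marks equal differences. STAT2 and RIGI lie to the right at y values of 0.07 and -0.11, ISG15 lies to the right and below 0, and ISG20 and IRF7 lie near x = 0 and at -1.499 and -1.01.

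The last comparison, SCR (+dox) against SCR (-dox), compares the labels in cells with the scrambled shRNA. Of 37 members tested with edgeR, 0 rose and 0 fell, DESeq2 and limma-voom called 0 as well, and the background was 0% in both directions over 13882 genes. At an unadjusted p under 0.05 there were 3 members, ISG15 (0.29 ± 0.13), ISG20 (0.36 ± 0.16) and IFI35 (0.38 ± 0.15), all higher at (+dox), and 271 of all genes. Members ran from -0.34 to 0.46 with a median of -0.03. For RIGI, IFIH1 and STAT2 the SCR groups overlapped.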

How the data were processed

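RNA from 16 cultures of HCT116 cells was sequenced, and the authors deposited raw counts per gene, made with STAR and featureCounts as the submitters' processing notes name them (limma, hg38 and GRCm38 are named there too), with no normalization. All 33937 identifiers are human Ensembl identifiers, and 33811 are in GENCODE 29 (GRCh38), which gave coordinates, exon overlaps and GC content. The strand setting is not given in the sources used here. The number of unmatched columns was 0. Depth was 11065606 to 13855486 counts per library, so members under about 1 CPM rest on few counts.

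From these counts, genes with CPM above 1 in at least 4 libraries of a fit were tested with edgeR 4.0.16 in R 4.3.3 (TMM, robust quasi-likelihood F test, two-sided, Benjamini-Hochberg adjustment over all genes tested). Each comparison was fitted on its own 8 libraries and the interaction on 16. A gene is said to rise or fall at an adjusted p under 0.05, and the study's limit of an absolute log2 fold change above 1 was counted as well. Levels are TMM-scaled CPM, with norm factors from genes with CPM above 1 in at least 4 of 16 libraries. Standard errors follow from the log2 fold change and F. NAA40 was compared by an exact permutation test. The methods speak of independent RNA samples, but the labels tie no library to a separate culture date, so p-values measure the spread between these libraries.

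Alternatives were DESeq2 1.42.0, limma-voom (limma 3.58.1), library-size scaling, no filter, a replicate block, each library left out and 1 fit over 16 libraries. After seeing the data a GC offset was added (lowess of the log2 deviation on GC content per library, span 0.3), alone and without NAA40-KD (-dox) replicate 4. The code was tested on simulated data. Members called have full statistics, and values per library are given for the 3 members of each class with the lowest p in the first comparison and the 3 most abundant effectors. From the wider pathway list the 8 with the lowest p are named. The promoters shown were chosen after values were seen. The members and lists were chosen with earlier results of these data known. A gene that the study names may not be reported here.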

Additional observations from a re-analysis of the deposited data

Results flagged for a closer look

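In groups of 4 libraries, 1 value can lie far from the other 3 by chance in about 1 of 20 groups, and 21 of 156 groups of member levels had such a value. Of the 21, 12 were at NAA40-KD (-dox) replicate 4, the library that stands apart by GC content. It was the high value for TYK2 (163.7 CPM), IRF3 (99.3 CPM), STING1 (14.24 CPM), ISG15 (343 CPM), ISG20 (16.55 CPM), IFI35 (18.86 CPM), IFITM2 (112.4 CPM) and IFITM3 (634 CPM), and the low value for TLR3 (0.6587 CPM), TBK1 (15.73 CPM), SAMD9 (5.928 CPM) and EIF2AK2 (41.83 CPM). In SCR (-dox), replicate 3 was far from the rest for DHX58 (2.601 CPM) and MX1 (1.53 CPM), and replicate 2 for IFNAR2 (5.968 CPM) and EIF2AK2 (89.34 CPM). SCR (+dox) had such a value for MX1 in replicate 3 (1.039 CPM). In NAA40-KD (+dox) these were TLR3 in replicate 1 (2.273 CPM), IFNAR1 (58.15 CPM) and ISG20 (3.477 CPM) in replicate 2, and TRIM22 in replicate 4 (1.85 CPM).

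The line difference depended on the label, by the interaction in edgeR over 16 libraries, for 8 members: the log2 difference at (-dox) minus that at (+dox) was 0.898 for STAT2, 1.479 for IRF7, 2.147 for ISG15, 1.743 for ISG20, 1.059 for USP18, 1.91 for IFI6, 1.377 for IFITM3 and 1.715 for BST2. Without replicate 4 of NAA40-KD (-dox) these 8 were at 0.867, 0.998, 1.628, 1.461, 0.97, 1.595, 1.073 and 1.591 in the same order.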

How the results depend on the processing

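For NAA40-KD (-dox) against SCR (-dox), where 4 members and 6.42% of all genes were called, DESeq2 called 11 (13.8% of all genes), 1 fit over 16 libraries 14 (20.9%), the GC offset 21 (38.1%), the GC offset without NAA40-KD (-dox) replicate 4 24 (40.6%), the fold limit 2 (3.47%), and leaving out each library 0 to 22 (1.64% to 36.5%). For NAA40-KD (+dox) against SCR (+dox), with 13 and 24.5% called, 1 fit over 16 libraries called 6 (6.67%), the fold limit 4 (2.15%), and leaving out each library 11 to 16 (17% to 25.4%). For NAA40-KD (+dox) against NAA40-KD (-dox), with 10 and 10.2% called, 1 fit over 16 libraries called 16 (23.1%), the GC offset 22 (46.3%), the GC offset without replicate 4 24 (52.8%), the fold limit 6 (3.99%), and leaving out each library 2 to 26 (2.77% to 52.4%). For the interaction, with 8 and 9.22% called, DESeq2 called 14 (13.7%), the GC offset 18 with or without replicate 4 (30.1% and 31.3%), and leaving out each library 7 to 18 (5.71% to 24.2%). Library-size scaling, limma-voom and no filter kept every count within 1.5 times. SAMD9 in NAA40-KD (+dox) against NAA40-KD (-dox), near 0 with all libraries, ran from -0.271 (without NAA40-KD (-dox) replicate 4, where it passed the test) to 0.154 with each library left out, and was at -0.225 with the GC offset and without replicate 4. NAA40 at (+dox), 110.8% of SCR, ran from 108.9% to 112.8% with each library left out. Replicate numbers did not pair the libraries (correlations of same-numbered deviations from -0.416 to 0.237, over 0.1 for 6 of 16 pairs, and 5 of 16 libraries closest to their own number), and the replicate block called 0, 18, 8, 0 and 9 members (0.59%, 29.3%, 5.61%, 0% and 8.46% of all genes) in the 5 comparisons in the order of the report's first 3, the SCR groups and the interaction. The cause of these changes was not tested.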
